A study of Mus musculus with 6 samples.

Results

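De novo nucleotide synthesis was followed through the mRNAs of 10 enzymes: Ppat, Gart, Pfas, Paics, Adsl, Atic and Impdh2 of the purine route, and Cad, Dhodh and Umps of the pyrimidine route. They were found by symbol among the 57010 gene identifiers of the deposited count table, and all 10 had enough reads to be tested, among 13442 tested genes. The RNA was from CT26, a colon carcinoma line of the mouse, in cells that carried a guide against Cdk10 (sgCdk10, 3 libraries) or a control guide (sgControl, 3 libraries). Both groups are the same line with a guide RNA, and no further treatment, time point or genotype is given in the labels. The labels do not say whether each guide gave a pool or a clone, or which site of Cdk10 the guide targets. They also do not say whether separate cultures were used for the libraries within a group. The p-values rest on the spread among these libraries alone, and that spread may be technical. Cdk10 encodes cyclin-dependent kinase 10, and the title of the study ties the kinase to nucleic acid sensors and antitumor immunity.

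Cells build purines on a ribose phosphate. Phosphoribosyl pyrophosphate (PRPP) receives nitrogen from glutamine, aspartate and glycine, and carbon from formyl-folate and carbon dioxide, until the ring of inosine monophosphate (IMP) is closed. IMP then goes to adenine or to guanine nucleotides. Pyrimidines are built the other way round: the ring is made first, from glutamine, bicarbonate and aspartate, and is joined to PRPP afterwards to give uridine monophosphate (UMP). Proliferating tumour cells draw on both routes, and several of their genes are known targets of MYC. The mRNA levels given here do not measure enzyme activity or nucleotide pools, and in a bulk sample fewer cells expressing a gene and less RNA per cell cannot be told apart.

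Library totals lay between 17532202 and 19258309 counts. sgControl replicate 3 stood apart: its gene counts differed from sgControl replicates 1 and 2 by 4.3 and 4.36 chi-square per degree of freedom, against 1.53 to 1.61 for the other pairs of replicates. Cdk10 had 11.3, 12.9 and 10.5 CPM (counts scaled by the TMM-adjusted total of the library) in sgCdk10 and 21.5, 19.4 and 20.1 CPM in sgControl, with no overlap, so it was lower in the cells with the guide against it (log2 fold change -0.82, SE 0.079; edgeR quasi-likelihood test, Benjamini-Hochberg adjusted p = 8.4e-09). A share of the remaining reads may belong to Spata2l and Gm45842, whose exons overlap those of Cdk10. The 8 epithelial and colon markers listed summed to 57.5 to 58.9 CPM in sgCdk10 and 36 to 40 CPM in sgControl: Krt18 and Krt20, the 2 that reached the level needed for a test, were both higher (log2 fold changes 0.65 and 0.51; edgeR adjusted p = 1.4e-09 and 4.8e-06), and Epcam had 0 counts in all 6 libraries. The 4 mesenchymal markers summed to 5911 to 6132 CPM in sgCdk10 and 5619 to 5718 CPM in sgControl. Of these, Fn1 and Sparc were higher (log2 fold changes 0.37 and 0.21; edgeR adjusted p = 3.6e-11 and 1.7e-06), and Vim and Cdh2 were not called. The 6 markers of T and B cells summed to 0.166 to 0.415 CPM in sgCdk10 and 0.22 to 0.564 CPM in sgControl. The 6 markers of macrophages and dendritic cells summed to 12.6 to 13.5 CPM in sgCdk10 and 8.63 to 9.04 CPM in sgControl, with 1 at 0 in every library; Cd68, the 1 tested, was higher (log2 fold change 0.57; edgeR adjusted p = 5.2e-06). The 5 fibroblast markers summed to 98.3 to 99.2 CPM in sgCdk10 and 73.6 to 87.2 CPM in sgControl, with 1 at 0; of the 3 tested, Pdgfra and Col1a1 were higher (0.63 and 0.27) and Col3a1 lower (-0.41). The part of these markers in the results was not tested.

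The enzymes of de novo synthesis differed little between the groups. Of the 10 genes 2 were called lower in sgCdk10 and 0 higher, at an adjusted p below 0.05 (edgeR): Impdh2 fell by 7.97% and Paics fell by 6.74%. Among all tested genes 42.5% were called, 22.1% higher and 20.4% lower in sgCdk10, so the 20% of the enzymes called lower was near the background of lower calls over all genes. DESeq2, limma-voom and each of the other alternatives also called 0 of the 10 higher, and at an unadjusted p below 0.05 edgeR gave 5 lower and 0 higher. At that unadjusted threshold 24.2% of all tested genes were lower and 25.4% higher. The median log2 fold change of the enzymes was -0.054, and their median absolute log2 fold change was 0.076, against 0.16 over all tested genes. The largest absolute value among them was 0.12, which 60.4% of the tested genes exceeded. Low counts widen fold changes, and among the 8237 tested genes with a mean level of at least 15 CPM, that of the lowest enzyme, the share above 0.12 was 51.4%. In that set 54.1% were called, 26.4% lower, 29.9% were lower at an unadjusted p below 0.05, and the median absolute log2 fold change was 0.12. The summed level of the 10 genes was 1493, 1515 and 1479 CPM in sgCdk10 and 1561, 1549 and 1530 CPM in sgControl.

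**Figure D1:**
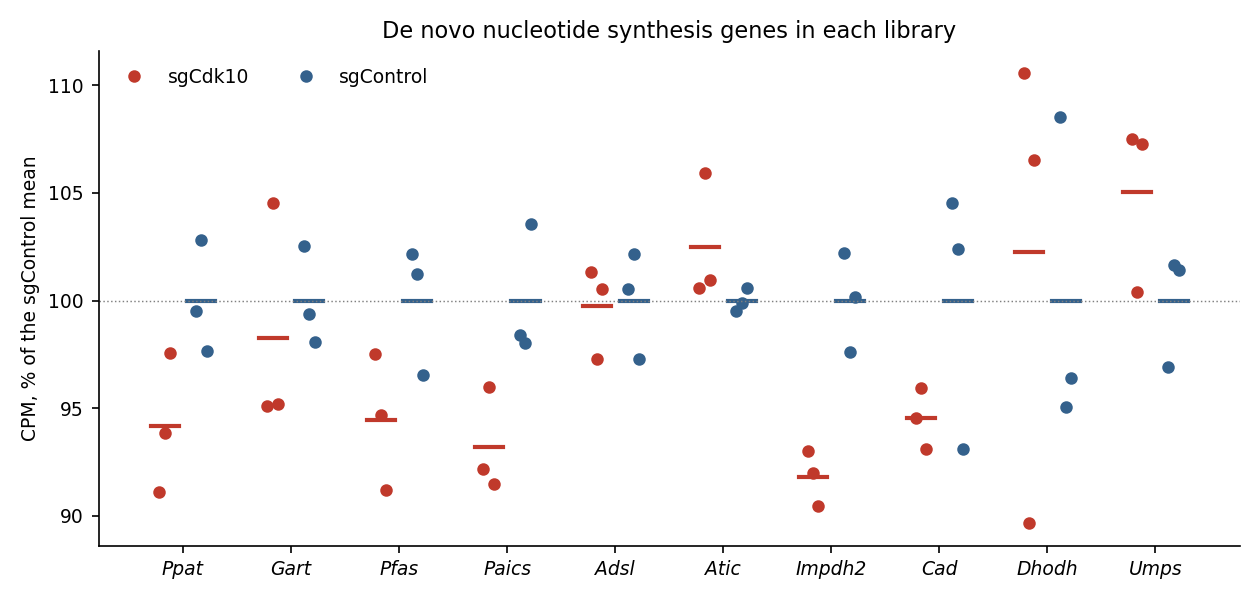
CPM of each enzyme gene in every library, as a percentage of its sgControl mean; points are libraries (3 per group) and bars are group means. Impdh2, Paics and Ppat are the genes whose groups do not overlap, and the Dhodh points are the most widely spread.

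In the purine route the commitment step was close between the groups. Ppat, the amidotransferase that puts the first nitrogen on PRPP, lies on the minus strand of chromosome 5 (76913249 to 76951578, GRCm38). It had 69.3, 71.4 and 74.2 CPM in sgCdk10 and 75.7, 78.2 and 74.3 CPM in sgControl. The highest sgCdk10 library lay just under the lowest sgControl library, and the difference was not called (log2 fold change -0.087, SE 0.040; edgeR adjusted p = 0.0814). Without sgControl replicate 3 it was called lower, at -0.11 (edgeR adjusted p = 0.0201).

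The next enzymes build the imidazole ring. Gart, a trifunctional enzyme that adds glycine, takes a formyl group from folate and closes the ring, is encoded on chromosome 16 (91621186 to 91646952, minus strand). Its level was 95.5, 105 and 95.6 CPM in sgCdk10 and 103, 99.8 and 98.5 CPM in sgControl. One sgCdk10 library was the highest of all 6 and the other 2 the lowest, so the groups overlapped (log2 fold change -0.028, 95% interval -0.11 to 0.051; edgeR adjusted p = 0.584). Pfas, which adds the nitrogen of a second glutamine, lies on chromosome 11 (68985697 to 69008460, minus strand). It had 104, 101 and 97.3 CPM in sgCdk10 and 109, 108 and 103 CPM in sgControl. The groups overlapped only in that the highest sgCdk10 library passed the lowest sgControl library (log2 fold change -0.082, SE 0.036; edgeR adjusted p = 0.0699). Pfas was called lower without sgControl replicate 3 (edgeR adjusted p = 0.00577) and after values were adjusted for GC content and length (-0.14; edgeR adjusted p = 0.00035).

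Paics fell. This bifunctional enzyme fixes carbon dioxide onto the ring and then adds aspartate. Its gene lies head to head with Ppat on chromosome 5 (76951307 to 76967509, plus strand), and exons of the 2 genes overlap by 272 bases on opposite strands. Paics had 267, 278 and 265 CPM in sgCdk10 and 285, 284 and 300 CPM in sgControl, with every sgCdk10 library under every sgControl library (log2 fold change -0.10, SE 0.030; edgeR adjusted p = 0.00914). The call was lost without sgCdk10 replicate 1 (edgeR adjusted p = 0.0594) or replicate 3 (edgeR adjusted p = 0.0656). Reads in the shared exon could not be assigned to Ppat or Paics with certainty, since the strand setting of the counting is not given in the sources used here.

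The closing steps of the ring did not pass the test. Adsl, the lyase that releases fumarate both here and on the way from IMP to adenine nucleotides, lies on chromosome 15 (80948490 to 80970946, plus strand). It had 125, 120 and 124 CPM in sgCdk10 and 124, 126 and 120 CPM in sgControl. The libraries were interleaved, and the 95% interval of its log2 fold change ran from -0.073 to 0.063. Atic, the bifunctional enzyme that adds the last formyl group and closes the purine ring, lies on chromosome 1 (71557150 to 71579631, plus strand). Its level was 282, 297 and 283 CPM in sgCdk10 and 279, 280 and 282 CPM in sgControl. One sgCdk10 library was above the rest, and the difference was not called (log2 fold change 0.036, 95% interval -0.023 to 0.095; edgeR adjusted p = 0.338).

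Impdh2 had the smallest p of the 10 genes. It encodes the inosine monophosphate dehydrogenase isozyme that is typical of proliferating cells and carries IMP towards guanine nucleotides, and lies on chromosome 9 (108560286 to 108565584, plus strand). It had 182, 180 and 177 CPM in sgCdk10 and 200, 191 and 196 CPM in sgControl. All sgCdk10 libraries were below all sgControl libraries (log2 fold change -0.12, SE 0.030; edgeR adjusted p = 0.00229), and each of the 14 alternatives called it too. The processed pseudogene Impdh2-ps on chromosome 8 held 943 to 999 counts in sgCdk10 and 977 to 1099 in sgControl, 21.7 to 23.6% of the sum of both rows, so reads may be divided between them. With both rows summed, a setting added after the data were seen, the log2 fold change was -0.12 (edgeR adjusted p = 0.00185). The neighbour Ndufaf3, a respiratory chain assembly factor that shares 48 exon bases with Impdh2 on the opposite strand, had 99 to 119 counts in sgCdk10 and 135 to 151 in sgControl. Over the purine and pyrimidine genes together, the groups did not overlap in 3, all lower in sgCdk10. Of all tested genes the groups did not overlap in 51.3%, with 26.6% higher and 24.8% lower in sgCdk10.

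The promoters of 8 of the 10 enzymes were present in the RefSeq table for GRCm38.p6, those of Pfas and Dhodh being absent from it. Each window runs from 250 bases before to 50 bases after the start of transcription. The E-box CACGTG, a palindrome that MYC with MAX and related factors are known to bind, occurred in 3 of the 8 windows, those of Impdh2, Paics and Atic. It occurred in 7.15% of all 32851 windows and in 9.91% of the 11802 windows of tested genes. Across the 13 lists of neighbouring genes used below, the share ran from 0 to 30.8%, the highest being 4 of 13 regulator genes. The Paics window also lies inside the Ppat gene, outside the window of Ppat. The windows of the 8 enzymes held 53.0 to 69.7% G and C, against a median of 60.7% over the windows of tested genes. The core of the ATF4 and C/EBP element, TGATGNAA, and the palindromic nuclear respiratory factor 1 site were searched on both strands as well and were in 0 of the 8 windows, against 3.97% and 0.971% of all windows. The windows of the genes that hold an E-box are given because they include both enzymes that fell and Atic, which did not pass the test. They are written 5′ to 3′ on the strand of the gene, with the E-box in capitals. They lie at chr9:108560186-108560485 (plus strand) for Impdh2, chr5:76951052-76951351 (plus strand) for Paics and chr1:71556906-71557205 (plus strand) for Atic.
Impdh2: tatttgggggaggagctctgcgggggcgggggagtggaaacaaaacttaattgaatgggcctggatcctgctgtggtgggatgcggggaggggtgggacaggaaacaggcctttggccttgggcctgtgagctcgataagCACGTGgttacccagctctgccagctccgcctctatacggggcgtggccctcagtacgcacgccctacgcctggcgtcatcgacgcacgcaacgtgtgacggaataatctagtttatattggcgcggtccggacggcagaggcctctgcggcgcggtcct
Paics: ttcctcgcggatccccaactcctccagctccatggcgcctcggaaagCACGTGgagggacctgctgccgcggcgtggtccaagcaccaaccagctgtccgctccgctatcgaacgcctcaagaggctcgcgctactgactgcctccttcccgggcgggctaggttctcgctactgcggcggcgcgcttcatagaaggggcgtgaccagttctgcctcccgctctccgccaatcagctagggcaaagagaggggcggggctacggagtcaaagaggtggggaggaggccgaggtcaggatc
Atic: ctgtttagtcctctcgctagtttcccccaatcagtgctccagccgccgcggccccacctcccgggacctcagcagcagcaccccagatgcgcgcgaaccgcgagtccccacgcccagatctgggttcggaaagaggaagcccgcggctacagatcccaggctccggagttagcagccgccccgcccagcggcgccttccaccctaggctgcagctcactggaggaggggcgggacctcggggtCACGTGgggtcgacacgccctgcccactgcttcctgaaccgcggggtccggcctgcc
Counted from the RefSeq start of transcription, the first base of the E-box was at -110 in Impdh2, at -203 in Paics and at -7 in Atic. The gene positions given above come from GENCODE, whose starts differ from these. By the GENCODE start of Impdh2, 108560286, its E-box lies inside the gene. The E-box of Atic spans the GENCODE start of that gene, 71557150. A match of these letters is a description of the window and not a measured binding site.

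The 3 pyrimidine enzymes did not pass the test. Cad, a single large protein that carries out the first steps from glutamine to dihydroorotate, lies on chromosome 5 (31054780 to 31078479, plus strand). It had 265, 269 and 261 CPM in sgCdk10 and 293, 287 and 261 CPM in sgControl. sgControl replicate 3 was as low as the sgCdk10 libraries, and the other 2 sgControl libraries were above all of them. With all libraries the log2 fold change was -0.080 (SE 0.036; edgeR adjusted p = 0.0841), and without sgControl replicate 3 it was -0.13 (edgeR adjusted p = 7.1e-06). The GC and length correction gave -0.19 (edgeR adjusted p = 2.5e-07), and the longest Cad transcript, with 57.4% G and C, was the richest of the 10 genes. Cad was also called without a filter on low counts, so its call depends on 1 library and on the processing.

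Dhodh encodes the mitochondrial dehydrogenase that makes orotate and hands its electrons to ubiquinone, and lies on chromosome 8 (109591343 to 109608673, minus strand). It was the lowest of the 10 genes, with 16.4, 13.3 and 15.8 CPM in sgCdk10 and 16.1, 14.1 and 14.3 CPM in sgControl. The groups overlapped throughout, and the 95% interval of its log2 fold change, -0.14 to 0.20, was the widest of the 10. Umps, the bifunctional enzyme that joins orotate to PRPP and removes its carboxyl group to give UMP, lies on chromosome 16 (33954782 to 33967038, minus strand). It had 86.3, 80.6 and 86.1 CPM in sgCdk10 and 77.8, 81.6 and 81.4 CPM in sgControl. Umps had the highest log2 fold change of the 10, 0.072 (SE 0.039), but one sgCdk10 library lay within the sgControl range and the difference was not called (edgeR adjusted p = 0.139).

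**Figure D2:**
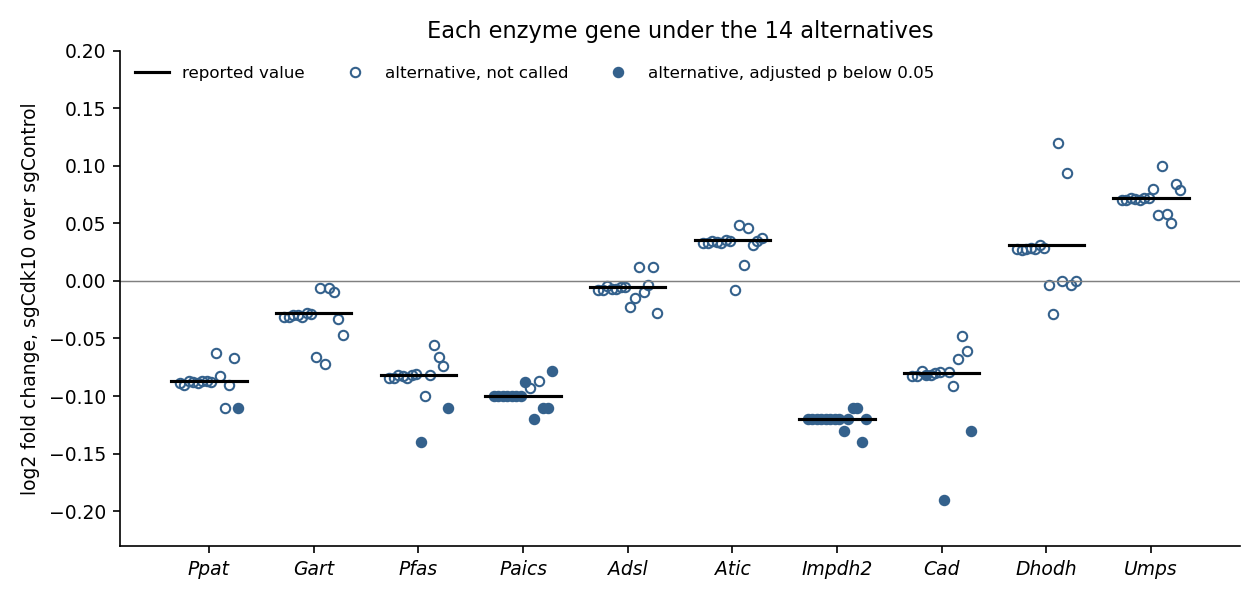
Log2 fold change (sgCdk10 over sgControl) of each enzyme gene as reported (bar) and under 14 alternative settings (points; filled where the adjusted p is below 0.05). Impdh2 is called in all 14, Paics in 12, Cad in 3, Pfas in 2 and Ppat in 1.

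The share of all tested genes called in either direction, the background for these alternatives, was 42.6% with size factors of another type. It was 31.1% with DESeq2, 41.1% with limma-voom, 20.6% without a filter and 47.6% with the stricter filter. It was 41.4% with non-robust dispersions, 40.8% with a replicate block and 44.6% with the GC and length correction. Without sgCdk10 replicate 1, 2 or 3 it was 34.9%, 35.2% or 35.3%, and without sgControl replicate 1, 2 or 3 it was 38%, 37.7% or 44.3%.

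Scaled per length, as TPM (each gene's count divided by its merged exon length, then scaled to the same sum in every library), the 10 genes spanned 7.83 to 281 TPM in sgCdk10 and 7.46 to 293 TPM in sgControl. Paics was the most abundant, with 281 ± 7.84 TPM in sgCdk10 and 293 ± 8.35 TPM in sgControl (SD, n = 3 each). Impdh2 came next, with 191 ± 3.02 TPM in sgCdk10 and 202 ± 5.26 TPM in sgControl. Atic, Cad, Umps, Adsl, Gart, Ppat and Pfas followed in that order, from 118 to 41.5 TPM in sgCdk10 and from 112 to 42.7 TPM in sgControl, and Dhodh was last. The order of the 10 means was the same in both groups. Neighbours in the order did not overlap between libraries, except Atic and Cad in sgControl, where Cad reached 114 TPM in one library. Ppat, whose enzyme starts the purine route, thus stood at 53.0 ± 1.71 TPM in sgCdk10 and 54.7 ± 1.45 TPM in sgControl, below 7 of the other genes and above Pfas and Dhodh.

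**Figure D3:**
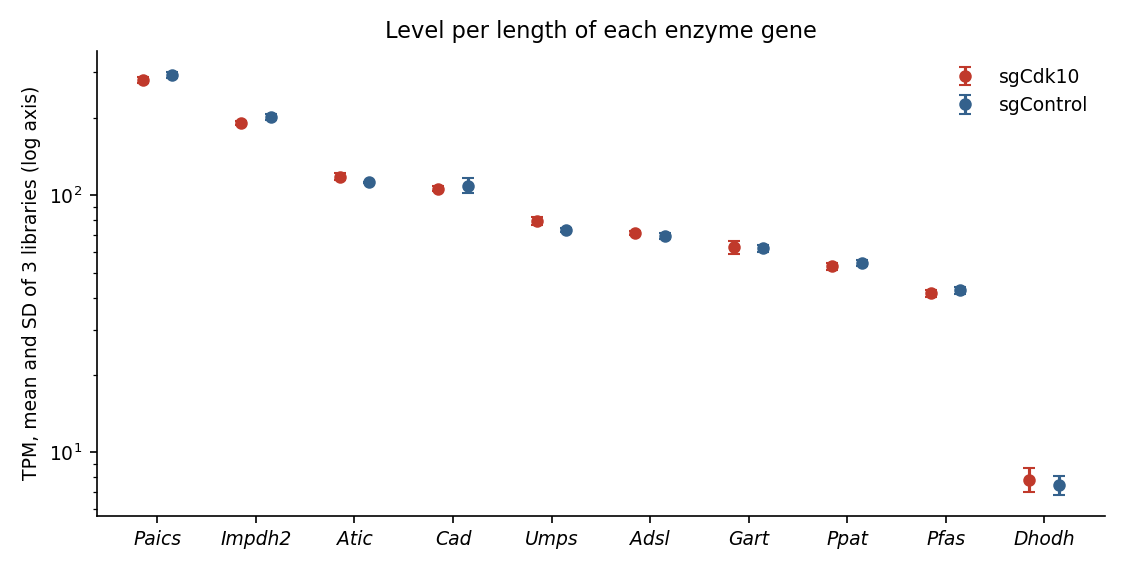
TPM of each enzyme gene on a log axis, as mean and SD of 3 libraries per group. Paics and Impdh2 are the highest and Dhodh the lowest, in the same order in sgCdk10 and sgControl.

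In the 13 lists of neighbouring genes, 115 genes were tested. Of these 20 were higher and 48 lower in sgCdk10 (59.1% called), with a median log2 fold change of -0.061. Over all tested genes 42.5% were called, 22.1% higher and 20.4% lower. Among the 8237 tested genes with a mean level of at least 15 CPM, 54.1% were called and 26.4% were called lower. The same shares are the background for each list below. The lists overlap in function with gene groups whose direction was known from earlier results of these data, so their counts are a description.

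**Figure D4:**
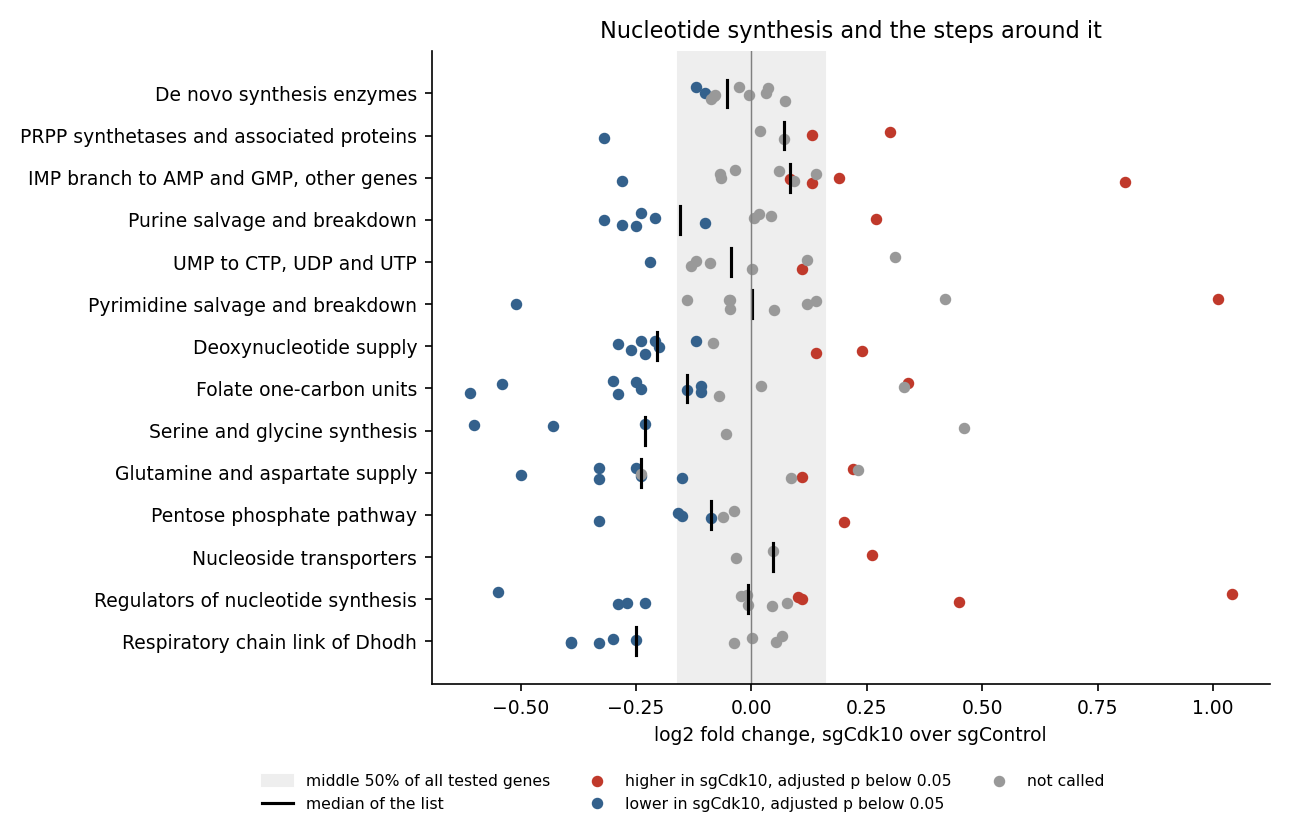
Log2 fold change (sgCdk10 over sgControl) of the tested genes of each list; each point is a gene, coloured by whether it was called, black bars are list medians and the grey band runs from the lower to the upper quartile of all tested genes. The de novo enzymes sit between -0.12 and 0.072, while Shmt2 at -0.61 and Mxi1 at 1.04 mark the ends of the lists around them.

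The supply of PRPP, the substrate of both routes, was mixed. Prps1 and Prps2, the synthetases that make PRPP, had 92.3 ± 3.4 and 71.6 ± 1.05 CPM in sgCdk10 and 91 ± 1.57 and 68.2 ± 2.28 CPM in sgControl (SD, n = 3 each), and neither was called (edgeR adjusted p = 0.708 and 0.166), although the libraries of the groups did not overlap for Prps2. Of the 2 associated proteins that bind the synthetases, Prpsap2 fell, with 22.2, 23.6 and 22.8 CPM in sgCdk10 and 28.4, 29.1 and 28.3 CPM in sgControl (log2 fold change -0.32, SE 0.056; edgeR adjusted p = 5.1e-05). Prpsap1 rose by 0.13 on the log2 scale (edgeR adjusted p = 0.0139), a call that DESeq2 and the fit without sgCdk10 replicate 2 did not make. Prps1l3, a gene named for its likeness to Prps1 and so able to share its reads, rose by 0.30 (edgeR adjusted p = 2.1e-05).

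At the branch after IMP the genes moved in opposite directions. Adss, adenylosuccinate synthetase, which opens the way to adenine nucleotides, had 170, 178 and 169 CPM in sgCdk10 and 201, 210 and 217 CPM in sgControl. Every sgCdk10 library was below every sgControl library (log2 fold change -0.28, SE 0.033; edgeR adjusted p = 2.0e-07). On the guanine side Impdh1, the second dehydrogenase isozyme, had 109, 107 and 117 CPM in sgCdk10 and 96.4, 101 and 95.6 CPM in sgControl, and rose (log2 fold change 0.19, SE 0.038; edgeR adjusted p = 0.00027) where Impdh2 fell. Gmps, which completes guanosine monophosphate, had 170 ± 3.18 CPM in sgCdk10 and 178 ± 5.91 CPM in sgControl (SD, n = 3 each) and was not called (edgeR adjusted p = 0.0921). Ampd3, an AMP deaminase that returns AMP to IMP, rose most in this list, with 28.4, 25.9 and 28 CPM in sgCdk10 and 15.6, 15.6 and 15.8 CPM in sgControl (log2 fold change 0.81, SE 0.063; edgeR adjusted p = 1.8e-10). Its exons overlap those of Rnf141 and other genes, so part of its count is uncertain. The more abundant deaminase gene Ampd2 was higher by 0.084 (edgeR adjusted p = 0.0339), a call made in 7 of the 14 alternatives. In the whole list 4 of 11 tested genes rose and 1 fell.

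Ratios of TPM within a library set these genes side by side. They were chosen after the values had been seen and are given without a test. Impdh1 per Impdh2 was 0.562, 0.554 and 0.618 in sgCdk10 and 0.451, 0.495 and 0.456 in sgControl. Adss per Gmps, the entry to the adenine arm against the last step of the guanine arm, was 1.82, 1.87 and 1.75 in sgCdk10 and 2.09, 2.12 and 2.11 in sgControl. Ampd3 per Ampd2 was 0.139, 0.124 and 0.141 in sgCdk10 and 0.0791, 0.0804 and 0.0847 in sgControl. In none of these ratios did the groups overlap, and Impdh2 stayed the more abundant dehydrogenase isozyme in all 6 libraries.

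**Figure D5:**
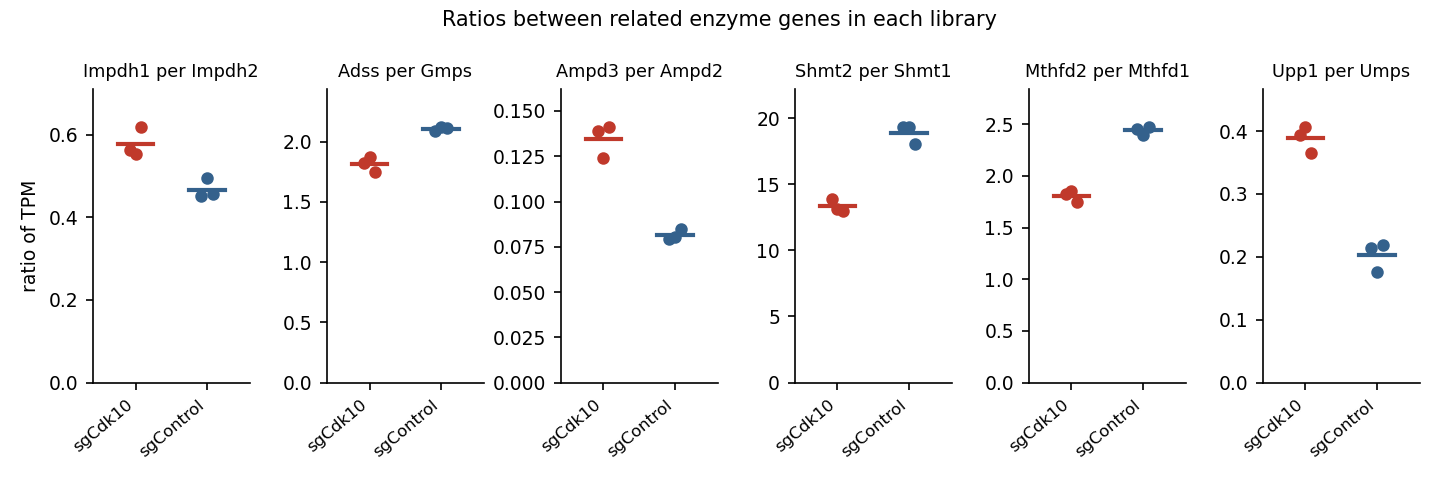
Ratios of TPM between 6 pairs of related genes in each library (points) with group means (bars), each axis starting at 0. Impdh1 per Impdh2, Ampd3 per Ampd2 and Upp1 per Umps are higher in sgCdk10; Adss per Gmps, Shmt2 per Shmt1 and Mthfd2 per Mthfd1 are lower.

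Genes that take UMP on to the other pyrimidines changed in 2 of 8 tested cases. Ctps, CTP synthetase, rose by 0.11 on the log2 scale, with 176, 172 and 174 CPM in sgCdk10 and 164, 159 and 163 CPM in sgControl (edgeR adjusted p = 0.00657). Nme1, a nucleoside diphosphate kinase, fell by 0.22 (edgeR adjusted p = 0.00091). Nme1 and its paralog Nme2 share exons with Gm20390, and Nme2 stood at 0.928 ± 0.346 CPM in sgCdk10 and 0.747 ± 0.0938 CPM in sgControl (SD, n = 3 each), so the division of reads between them is uncertain. Cmpk1, the UMP and CMP kinase, was not called (log2 fold change -0.090, 95% interval -0.19 to 0.0076; edgeR adjusted p = 0.132).

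Genes of purine salvage, which recovers bases and nucleosides, and of purine breakdown were listed together and were mostly lower. Of 10 tested, 6 fell and 1 rose, with a median log2 fold change of -0.16. Adk, adenosine kinase, fell (log2 fold change -0.28; edgeR adjusted p = 1.2e-05), and had 49.6, 49.0 and 50.1 CPM in sgCdk10 and 60.7, 61.2 and 58.2 CPM in sgControl. Dck, the kinase of deoxycytidine and purine deoxynucleosides, fell by 0.32 on the log2 scale (edgeR adjusted p = 3.2e-06). On the side of breakdown Xdh, xanthine dehydrogenase, fell by 0.25 and Nt5c2, a nucleotidase, by 0.21 (edgeR adjusted p = 3.3e-07 and 0.00030). The gene that rose was Mtap, which frees adenine from methylthioadenosine, with 223, 228 and 234 CPM in sgCdk10 and 187, 187 and 192 CPM in sgControl (log2 fold change 0.27, SE 0.030; edgeR adjusted p = 6.0e-08). Hprt and Aprt, the base salvage enzymes that use PRPP, were singled out after their values were seen: Hprt was lower, at -0.10 on the log2 scale (edgeR adjusted p = 0.0226), called in 9 of 14 alternatives, and Aprt was at 0.043 and not called (edgeR adjusted p = 0.302).

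Of 10 tested pyrimidine salvage and breakdown genes 1 rose and 1 fell. Upp1, uridine phosphorylase, rose to 19.1, 18.4 and 17.7 CPM in sgCdk10, against 9.36, 8.08 and 10 CPM in sgControl (log2 fold change 1.01, SE 0.083; edgeR adjusted p = 6.1e-10). Upp1 per Umps, in TPM, was 0.388 ± 0.021 in sgCdk10 and 0.203 ± 0.0235 in sgControl (SD, n = 3 each). Tk1, the thymidine kinase of S phase, fell by 0.51 on the log2 scale (SE 0.033). Uck2, a uridine and cytidine kinase gene singled out after its value was seen, was not called (log2 fold change -0.046; edgeR adjusted p = 0.256).

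Genes of deoxynucleotide supply were lower in 7 of 10 cases and higher in 2. Dtymk, thymidylate kinase, had 65.4, 63.9 and 65.7 CPM in sgCdk10 and 78.2, 82.0 and 79.0 CPM in sgControl, which gave -0.29 for the log2 fold change (SE 0.039; edgeR adjusted p = 1.1e-06). Dut, which removes dUTP, fell by 0.23, and Tyms, thymidylate synthase, by 0.20. Rrm2, the small subunit of ribonucleotide reductase, fell by 0.24. Each of these 4 genes showed every sgCdk10 library below every sgControl library. The 2 that rose, singled out after their values were seen, were Dctd at 0.24 and Samhd1 at 0.14 (edgeR adjusted p = 0.00028 and 0.00079).

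Genes that supply the folate carbon of purine synthesis were mostly lower. Of 13 tested folate genes 9 fell and 1 rose. Shmt2 and Mthfd2, which work in the mitochondrion to turn serine into formyl units, had 551 ± 7.16 and 241 ± 4.87 CPM in sgCdk10 and 841 ± 27.5 and 352 ± 5.75 CPM in sgControl (SD, n = 3 each). Their log2 fold changes were -0.61 and -0.54 (edgeR adjusted p = 8.5e-15 and 1.3e-13). Mthfd1l and Aldh1l2, also mitochondrial, fell by 0.30 and 0.29. Exons of Aldh1l2 overlap those of D10Wsu102e by 1056 bases on the opposite strand, so part of its count is uncertain. The gene that rose was Mthfd2l, a mitochondrial paralog of Mthfd2, with 31.3, 28 and 30.8 CPM in sgCdk10 and 23.8, 23.2 and 24.2 CPM in sgControl (log2 fold change 0.34; edgeR adjusted p = 4.5e-05). The mitochondrial genes thus did not all move one way. Mthfd2l and the cytosolic Mthfd1 and Shmt1 were singled out after their values were seen: Mthfd1, which makes the formyl-folate used by Gart and Atic, was at -0.11 (edgeR adjusted p = 0.00631), called in all alternatives but that without sgControl replicate 2, and Shmt1 at -0.11 (edgeR adjusted p = 0.0427), a call made in 6 of 14 alternatives. In TPM, Shmt2 per Shmt1 was 13.9, 13.1 and 13 in sgCdk10 and 19.3, 19.3 and 18 in sgControl, and Mthfd2 per Mthfd1 was 1.82, 1.85 and 1.75 in sgCdk10 and 2.45, 2.40 and 2.47 in sgControl. The difference between compartments was not tested.

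Serine synthesis, which feeds glycine and folate carbon, was lower at each of its 3 steps, the 3 genes called among 5 tested. At an unadjusted p below 0.05 edgeR gave 3 lower and 1 higher in this list, and DESeq2 called 3 lower and 0 higher. The 1 higher was Amt, singled out after its value was seen (log2 fold change 0.46, edgeR adjusted p = 0.0503). It had a mean of 3.05 CPM in sgCdk10 and 2.22 CPM in sgControl. In 2 fits with 1 library left out, 1 gene of the list was called higher. Psph, the last phosphatase, had 67.2, 67.0 and 67.7 CPM in sgCdk10 and 103, 101 and 102 CPM in sgControl (log2 fold change -0.60, SE 0.035, edgeR adjusted p = 1.2e-12). Its exons overlap those of Cct6a by 452 bases on the opposite strand, so part of its count is uncertain. Psat1 fell by 0.43 and Phgdh, the first enzyme, by 0.23 on the log2 scale. Of 11 tested genes of glutamine and aspartate supply 6 fell and 2 rose. Asns, which consumes both amino acids to make asparagine, had 464 ± 11.5 CPM in sgCdk10 and 659 ± 16 CPM in sgControl (SD, n = 3 each). The glutamine carriers Slc1a5 and Slc38a2 each had a log2 fold change of -0.33, and Got1, the cytosolic aspartate aminotransferase, of -0.25 (edgeR adjusted p = 6.9e-10, 2.3e-10 and 2.1e-07).

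The pentose phosphate pathway supplies the ribose of PRPP. Of its 7 genes 4 fell and 1 rose. Rpia, ribose phosphate isomerase, had 20.1, 21.4 and 21.9 CPM in sgCdk10 and 27.0, 26.7 and 26.0 CPM in sgControl (log2 fold change -0.33, SE 0.059; edgeR adjusted p = 7.7e-05). Rpe, the epimerase of the same branch point, rose by 0.20 (edgeR adjusted p = 0.00231), while Tkt fell by 0.16 and Pgd by 0.15. Exons of Rpe overlap those of Kansl1l by 558 bases on the opposite strand, so part of its count is uncertain. G6pdx, the first enzyme of the pathway, was lower, at -0.087 on the log2 scale (edgeR adjusted p = 0.0243), and the call was lost without sgCdk10 replicate 2 or sgControl replicate 2.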

How the data were processed

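Per the submitters' processing notes, the tools were DESeq2 1.40.2, featureCounts 2.0.3 and HISAT2 2.2.1, on mm10. The authors deposited raw counts per Ensembl gene for 6 libraries, without normalization; neither annotation release nor strand setting is stated in the sources used here. Symbols, lengths and positions came from GENCODE M21 (GRCm38), which held 52081 of the 57010 identifiers. The 10 enzymes, the gene lists and the rule for named genes were chosen with earlier results of these data known. Named were the 10 enzymes, Cdk10, Myc, Atf4, up to 5 called genes per list by smallest p, and tested genes of the PRPP, IMP and UMP lists; a few of these are not reported here.

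Genes passing filterByExpr (minimum count 10, total 15) were tested with edgeR 4.0.16 by the robust quasi-likelihood test on TMM-scaled counts, with group as the only term and a threshold of 0.05 on Benjamini-Hochberg adjusted p. Positive log2 fold changes mean higher in sgCdk10. Intervals are at 95%, unadjusted. CPM used TMM-scaled totals; at this depth 3 counts corresponded to 0.156 to 0.171 CPM. Counting precision is limited by reads that are not independent molecules. Alternatives were DESeq2 1.42.0, limma-voom 3.58.1 and the settings given in the closing section. The code was tested on simulated counts. Of the genes changed 1.25-fold there, 51% were recovered, and 88%, 87% and 100% of those changed 1.5, 2 and 3-fold. False calls were 5.99% of all calls. Changes as small as those of the 10 enzymes were not simulated.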

Additional observations from a re-analysis of the deposited data

How the results depend on the processing

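Alternatives were DESeq2, DESeq2-type size factors in edgeR, limma-voom, no filter, a filter of 1 CPM in each library of either group, the replicate block, non-robust dispersions, a GC and length correction (loess, span 0.5) and leaving out each library. Calls over all genes ranged from 4179 (DESeq2) to 5906 (GC and length correction) with all libraries, against 5717, and from 4791 to 6056 with 1 left out. Cdk10 ran from -0.90 to -0.75 with 1 left out. Of 82 named genes 57 were called, and 7 of these lost the call in at least 1 of 14 settings. Genes such as Mthfd2l, Amt, Tsc1, Mtor, Dctd, Samhd1 and the cell type markers are not among the 82. Most of the 57 were named for the smallest p of their list, so this says little of other calls. The lists around the enzymes had 16 to 21 genes called higher and 44 to 54 lower. The count of enzymes called lower was 2, and it was 4 with the GC and length correction and 1 to 5 with 1 library left out: 5 without sgControl replicate 3, and 1 without sgCdk10 replicate 1 or 3; the cause was not tested. The GC and length correction gave Pfas -0.14, Cad -0.19, Atic -0.0083 and Dhodh -0.0033. Without a filter Cad was called at -0.082 (adjusted p = 0.0427). With 1 library left out, log2 fold changes ran from -0.11 to -0.063 for Ppat, -0.072 to -0.0059 for Gart, -0.11 to -0.056 for Pfas, -0.12 to -0.078 for Paics, -0.028 to 0.012 for Adsl, 0.014 to 0.049 for Atic, -0.13 to -0.048 for Cad, -0.029 to 0.12 for Dhodh, 0.05 to 0.10 for Umps, -0.14 to -0.11 for Impdh2, -0.011 to 0.039 for Prps1, -0.0077 to 0.16 for Ak6, -0.027 to 0.48 for Nme2, -0.036 to 0.032 for Cmpk2 and -0.015 to 0.088 for Myc. Cmpk2, at 0.0021, was also -0.00044 with size factors of the DESeq2 type, -0.00024 with DESeq2 and -0.0002 with the 1 CPM filter. The replicate block gave 5481 calls and the same 2 enzymes. Same-numbered libraries correlated in their deviations at 0.025, -0.057 and -0.096, and 1 of 6 libraries correlated best with its own number, so the numbers were not taken as pairing. Dhodh, with 233 to 304 counts per library, is the enzyme whose depth limits most what could be detected.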

Other observations

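Regulators known to act on nucleotide synthesis genes moved apart from each other. Myc, the transcription factor known to drive several of the de novo enzymes, had 175, 171 and 179 CPM in sgCdk10 and 180, 174 and 156 CPM in sgControl, and was not called (log2 fold change 0.045, 95% interval -0.046 to 0.14; edgeR adjusted p = 0.427). sgControl replicate 3 was the lowest library for Myc. Mxi1, a MAX partner that is known to repress E-box genes, rose to 106, 107 and 107 CPM in sgCdk10, against 50.9, 53.9 and 50.4 CPM in sgControl (log2 fold change 1.04, SE 0.038; edgeR adjusted p = 1.5e-16). Mnt, another MAX partner with that role, fell by 0.29 on the log2 scale. Atf4, the factor known to drive serine and folate genes under stress, had 723, 705 and 718 CPM in sgCdk10 and 1051, 1058 and 1023 CPM in sgControl (log2 fold change -0.55, SE 0.026; edgeR adjusted p = 1.7e-14). Nrf1 rose by 0.45 and Rheb, which activates mTORC1, fell by 0.27. Tsc1 and Mtor were singled out after their values were seen. Tsc1 was lower, at -0.23, and Mtor higher, at 0.11 (edgeR adjusted p = 1.6e-05 and 0.00874). In this list of 13 tested genes 4 rose and 4 fell.

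Ubiquinone, the electron acceptor of Dhodh, is made by enzymes whose genes were lower where they changed: of 9 tested, 5 fell and 0 rose (edgeR adjusted p below 0.05), and 0 were higher at an unadjusted p below 0.05 or by DESeq2. Coq2 had 36.4, 35.5 and 36.4 CPM in sgCdk10 and 46.0, 49.4 and 46.9 CPM in sgControl (log2 fold change -0.39, SE 0.048; edgeR adjusted p = 3.4e-07). Coq9, also at -0.39, Coq4 at -0.33, Coq7 at -0.30 and Pdss1 at -0.25 were the others. Exons of Coq4 overlap those of Trub2 by 921 bases on the opposite strand, so part of its count is uncertain. Among 3 tested nucleoside transporters Slc29a2 rose by 0.26 (edgeR adjusted p = 0.00097), with 23.2, 24.2 and 23.9 CPM in sgCdk10 and 19.1, 20.3 and 19.9 CPM in sgControl.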
